A study of Homo sapiens with 16 samples.

Results

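The integrated stress response (ISR) genes ATF4, DDIT3, TRIB3, ATF3, CHAC1, ASNS, SESN2 and DDIT4 were examined together with NUPR1 and GDF15, 10 genes of the 58735 in the count table. The 10 were taken by gene symbol, and all 10 passed the filter on low counts that left 17647 genes for testing. The set was picked because GDF15 and NUPR1 were much higher with the inhibitor in both cell lines. The YES1i against DMSO values of the 10 genes are therefore a description and carry no test. Tests are given for comparisons that the choice was not made on: the levels of the lines in DMSO, and the difference between the changes of the lines. They use the same libraries, so for GDF15 and NUPR1 they are not independent of the choice. The YES1i against DMSO contrast was tested for genes outside the set.

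The cells were those of MDA-MB-231 and of SUM159, written SUM159PT in some titles, which are established triple-negative human breast cancer lines, both labelled WT for genotype. Each line was given DMSO, the solvent, or YES1i (CH6953755) at 8 uM, which blocks YES1, a kinase of the Src family, for 48 h, with 4 poly(A) RNA libraries in each of the 4 groups. MDA-MB-231 was plated in RPMI and SUM159 in Ham's F12, so line and medium cannot be told apart. The series text calls the 4 libraries of a group technical replicates, so p-values measure only the spread between these libraries. Levels are in CPM, the count of a gene relative to the counts of all tested genes in its library, scaled with TMM factors. Errors are SD over n = 4 unless SE is named.

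Total counts ran from 15876171 to 36261542 per library. ESR1 and PGR were at or under 0.608 CPM on average in every group, while ERBB2 stood at 108 to 118 CPM. KRT8 and KRT18 were present in both lines, and KRT19 had 0 counts in SUM159, where COL1A1, a fibroblast marker, stood at 745 CPM with DMSO. The carcinoma markers were KRT8, KRT18, KRT19 and EPCAM, the last at 0.0161 CPM in SUM159 with DMSO. Their sum ran from 1520 to 1660 CPM with DMSO and from 1190 to 1370 CPM with YES1i in MDA-MB-231. In SUM159 it ran from 408 to 440 and from 322 to 372 CPM. By gene, KRT8 in MDA-MB-231 went from a mean of 810 to 556 CPM and KRT18 from 377 to 255 CPM. KRT19 rose there from 394 to 455 CPM, and EPCAM stood at 11.8 and 12.1 CPM. VIM, a mesenchymal marker, ran from 819 to 836 CPM with DMSO and from 728 to 770 CPM with YES1i in MDA-MB-231, and from 1870 to 2030 and 2400 to 2480 CPM in SUM159. Of the leukocyte markers PTPRC reached at most 0.380 CPM on average in a group and CD3E was at 0 in 3 groups, while CD14 had means of 1.82 and 1.4 CPM in MDA-MB-231 and of 0.718 with DMSO and 2.39 CPM with YES1i in SUM159. Summed endothelial markers ran from 2.38 to 4.80 CPM with DMSO and from 8.48 to 9.98 CPM with YES1i in MDA-MB-231. Most of that sum was PECAM1, with means of 3.2 and 8.67 CPM. VWF had means of 0.22 and 0.671 CPM there, and CDH5 of 0.0228 and 0.012 CPM. The part of all these markers in the results was not tested. Summed fibroblast markers ran in MDA-MB-231 from 35.5 to 37.3 CPM with DMSO and from 19.4 to 25.5 CPM with YES1i. In SUM159 the sums overlapped between treatments. Most of the SUM159 sum was COL1A1, with means of 745 and 741 CPM with DMSO and YES1i. PDGFRB went there from a mean of 32.3 to 47.5 CPM and DCN from 8.59 to 19 CPM. Mitochondrial rRNA held 0.619% to 0.678% of counts with DMSO and 1.29% to 1.39% with YES1i in MDA-MB-231. In SUM159 it held 0.658% to 0.810% and 1.28% to 1.48%, and its part in the results was not tested.

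SUM159 DMSO replicate 2, the shallowest library, stood apart for these genes. It was the highest of its group for all 10, while it was the highest for 25.3% of all tested genes. The changes of the 10 genes in SUM159 and the calls between the lines are given with and without it.

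The ISR begins when a stress kinase (PERK, GCN2, PKR or HRI) phosphorylates the translation factor eIF2. Bulk protein synthesis falls while translation of ATF4 mRNA rises, and the ATF4 protein then switches on genes for amino acid supply and further transcription factors such as CHOP, the product of DDIT3. Much of the control of ATF4 is thus on translation, which a count of mRNA does not show. GDF15, a secreted cytokine of stressed and cancerous cells, and NUPR1, a small chromatin protein, are both known to be induced by ATF4 and CHOP in many cell types.

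ATF4 pairs with C/EBP proteins on a composite element whose shared core is often written TGATGNAA. This string was searched on both strands in RefSeq promoter windows of GRCh38.p14, from 250 bases before to 50 bases after each listed start. Of the 10 genes 9 matched the table by symbol, with 15 windows. The string was found in 3 of these genes, CHAC1, ASNS and ATF3, where 4.46% of all 27305 genes in the table held it, in 3.62% of 35116 windows. It began 209 bases before the start of CHAC1, where it lay on the opposite strand, 68 bases before that of ASNS and 191 bases before that of the upstream ATF3 start. The 250 bases before those starts are given 5′ to 3′ on the gene's strand with the match in capitals, and those of GDF15, one of the pair that chose the set, are given beside them, with no match in its window. A match here is a string of letters, not a measured site. The coordinates are chr15:40953221-40953470 for CHAC1 and chr7:97872409-97872658, on the minus strand, for ASNS. They are chr1:212565157-212565406 for ATF3 and chr19:18385908-18386157 for GDF15, like CHAC1 on the plus strand.
CHAC1: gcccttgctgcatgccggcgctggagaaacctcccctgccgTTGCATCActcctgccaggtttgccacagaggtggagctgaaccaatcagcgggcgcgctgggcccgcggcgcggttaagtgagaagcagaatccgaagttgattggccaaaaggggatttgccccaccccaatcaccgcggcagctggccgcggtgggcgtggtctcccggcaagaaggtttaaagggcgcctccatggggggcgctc
ASNS: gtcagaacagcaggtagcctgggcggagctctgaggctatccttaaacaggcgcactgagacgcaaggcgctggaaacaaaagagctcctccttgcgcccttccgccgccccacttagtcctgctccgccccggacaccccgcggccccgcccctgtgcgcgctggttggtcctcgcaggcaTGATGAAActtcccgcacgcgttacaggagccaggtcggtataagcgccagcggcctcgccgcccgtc
ATF3: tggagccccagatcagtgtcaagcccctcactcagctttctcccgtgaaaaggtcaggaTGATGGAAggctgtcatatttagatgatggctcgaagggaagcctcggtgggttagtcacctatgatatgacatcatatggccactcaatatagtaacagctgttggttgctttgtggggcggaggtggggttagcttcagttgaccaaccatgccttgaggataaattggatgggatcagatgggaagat
GDF15: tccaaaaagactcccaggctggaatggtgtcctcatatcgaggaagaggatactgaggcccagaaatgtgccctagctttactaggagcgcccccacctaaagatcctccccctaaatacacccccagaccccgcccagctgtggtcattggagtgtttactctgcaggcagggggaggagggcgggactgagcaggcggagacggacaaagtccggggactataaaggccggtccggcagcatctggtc

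GDF15 and NUPR1 had by far the greatest changes of the set, and from opposite starting points: GDF15 started higher in MDA-MB-231 and NUPR1 in SUM159. GDF15 (ENSG00000130513, chromosome 19, 18374731 to 18389176 on hg38) read 4.94, 5.72, 5.14 and 5.97 CPM in the 4 DMSO libraries of MDA-MB-231 and 64.8, 57.9, 64.3 and 64.1 CPM in its YES1i libraries. In SUM159 it read 1.29, 2.13, 1.51 and 1.70 CPM with DMSO and 19.5, 18.6, 14.5 and 15.1 CPM with YES1i. The groups were far apart in both lines, and each YES1i library of SUM159 stood below every YES1i library of MDA-MB-231. The fold change was 11.5 (log2 3.53, SE 0.11) in MDA-MB-231 and 10.6 (log2 3.41, SE 0.13) in SUM159.

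NUPR1 (ENSG00000176046, chromosome 16, 28532708 to 28539174) read 1.60, 0.981, 0.808 and 0.957 CPM in the DMSO libraries of MDA-MB-231, from 17 to 33 counts each. Its YES1i libraries there read 14.0, 17.6, 17.8 and 18.6 CPM. In SUM159 it read 24.3, 24.9, 18.9 and 23.0 CPM with DMSO and 108, 129, 108 and 107 CPM with YES1i. The level that MDA-MB-231 reached with YES1i, 17.0 ± 2.03 CPM, was still below the 22.8 ± 2.69 CPM of SUM159 without it. The fold change was 15.6 (log2 3.96, SE 0.16) in MDA-MB-231 and 4.97 (log2 2.31, SE 0.10) in SUM159. Without DMSO replicate 1, the highest of its group, the MDA-MB-231 value became 4.21 on the log2 scale.

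**Figure D1:**
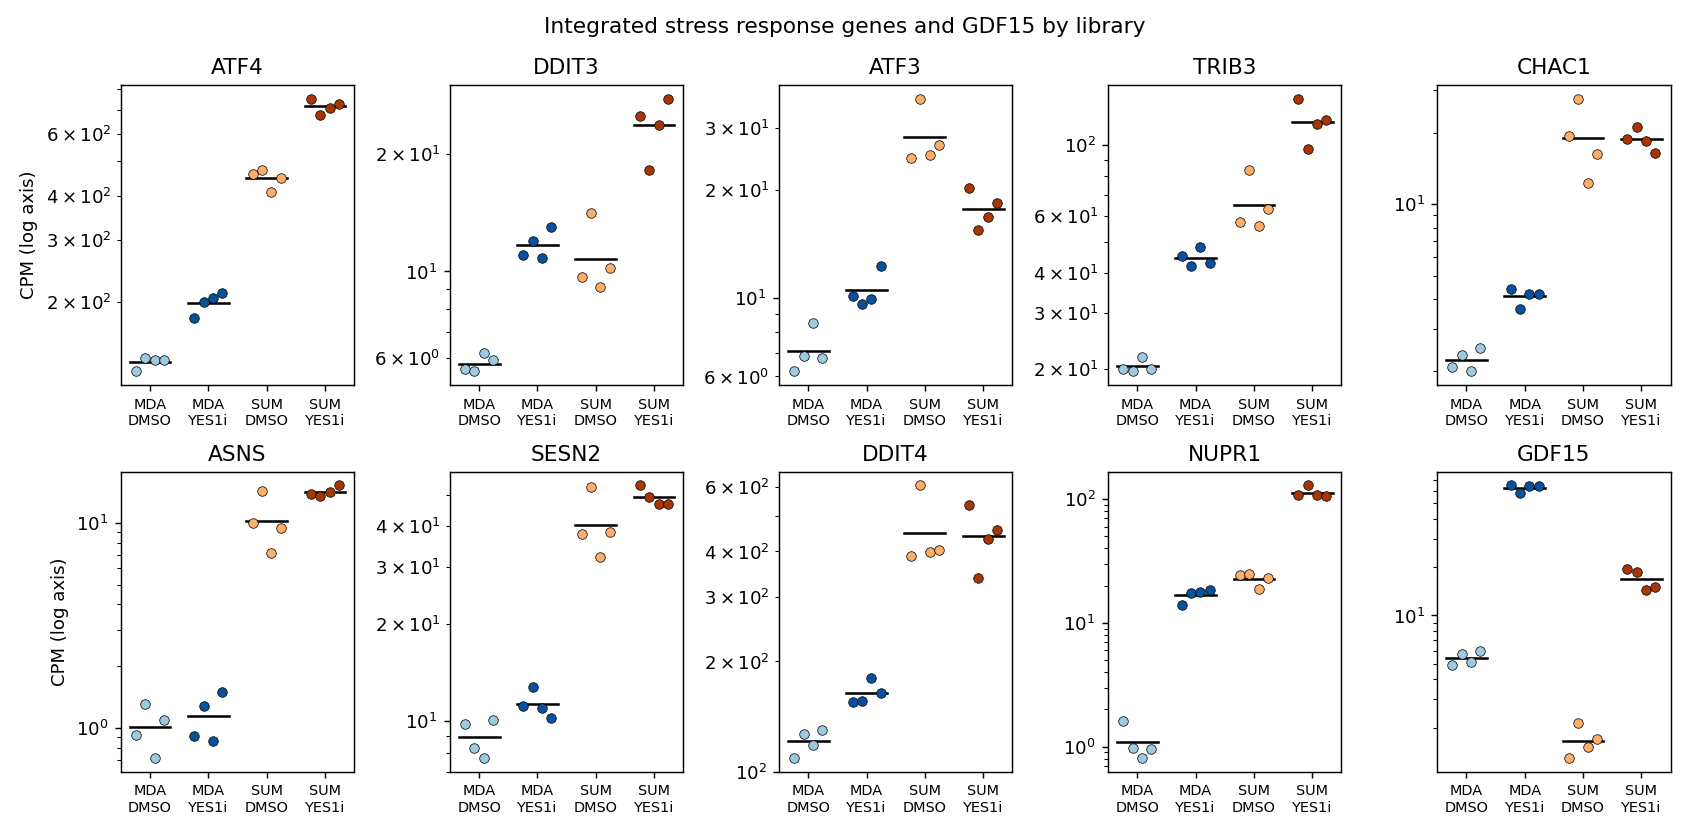
CPM of each gene (log axis, a range of its own in each panel) in the 16 libraries, with points for libraries 1 to 4 from left to right in each group and a bar at the group mean (MDA, MDA-MB-231; SUM, SUM159). Within each treatment, GDF15 is the gene whose MDA-MB-231 libraries stand above those of SUM159, while the other 9 genes are lower in MDA-MB-231 in DMSO.

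The transcription factors of the axis differed in size and direction of change. ATF4 mRNA, the most abundant of the 3 per length, read 127, 139, 137 and 137 CPM in the DMSO libraries and 181, 199, 205 and 212 CPM in the YES1i libraries of MDA-MB-231. In SUM159 it read 460.1, 474, 410.2 and 450.1 CPM with DMSO and 754, 678, 711 and 728 CPM with YES1i. The groups did not overlap in either line, and the fold changes were 1.48 (log2 0.56, SE 0.06) and 1.60 (log2 0.68, SE 0.05).

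DDIT3, which encodes CHOP, a factor of prolonged stress, read 5.62, 5.56, 6.18 and 5.93 CPM with DMSO and 11.01, 11.9, 10.8 and 13 CPM with YES1i in MDA-MB-231. In SUM159 the values were 9.70, 14.1, 9.13 and 10.2 CPM and 25.0, 18.2, 23.7 and 27.7 CPM. It was about doubled in each line, with fold changes of 2.00 and 2.22, again without overlap. DDIT3 overlaps MARS and MBD6 on the opposite strand, which held far more counts, and the strand setting of the counting is not given in the sources used here. Its values are therefore uncertain, and the part of reads from these genes was not tested. MARS and MBD6 themselves had log2 fold changes of -0.16 and -0.04 in MDA-MB-231, and of 0.03 and 0.15 in SUM159.

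ATF3, a stress factor that often represses its targets, went in opposite directions in the lines. It read 6.20, 6.86, 8.46 and 6.75 CPM with DMSO and 10.1, 9.61, 9.93 and 12.3 CPM with YES1i in MDA-MB-231, a fold change of 1.48 (log2 0.57, SE 0.13). In SUM159 it read 24.7, 36.2, 25.1 and 26.9 CPM with DMSO and 20.3, 15.4, 16.9 and 18.4 CPM with YES1i. All SUM159 libraries with YES1i were below all those with DMSO, by 1.58-fold (log2 -0.66, SE 0.12).

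The targets that feed back on the response or act on metabolism had fold changes of up to 2.18, that of TRIB3 in MDA-MB-231. TRIB3, a pseudokinase that damps ATF4 and CHOP, stood at 20.5 ± 0.964 CPM with DMSO and 44.6 ± 2.73 CPM with YES1i in MDA-MB-231, and at 65.1 ± 12.8 and 118 ± 17.3 CPM in SUM159, with no overlap in either. CHAC1, which breaks down glutathione, read 2.08, 2.34, 2.00 and 2.51 CPM with DMSO and 4.41, 3.65, 4.22 and 4.20 CPM with YES1i in MDA-MB-231, a fold change of 1.85. In SUM159 it read 19.4, 27.8, 12.3 and 16.3 CPM with DMSO, which spans its 18.9, 21.1, 18.5 and 16.4 CPM with YES1i. The log2 fold change there was -0.01 (SE 0.16).

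ASNS, which makes asparagine and is a classical ATF4 target, was barely present in MDA-MB-231, at 15 to 24 counts per library with DMSO and 16 to 30 with YES1i. Its level there was 1.01 ± 0.253 CPM with DMSO and 1.14 ± 0.303 CPM with YES1i, and the groups overlapped. In SUM159 it went from 10.2 ± 3.02 to 14.2 ± 0.724 CPM (log2 0.49, SE 0.15), with overlap through DMSO replicate 2 alone. ASNS overlaps AC079781.5 on its own strand, a gene with 23.7% of its counts, and the pseudogene AC005326.1 on the opposite strand, with 12.4%.

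SESN2 and DDIT4, both brakes on the growth kinase complex mTORC1, had small changes. SESN2 was at 8.97 ± 1.17 CPM with DMSO and 11.3 ± 1.04 CPM with YES1i in MDA-MB-231 (log2 0.32, SE 0.14), where the highest DMSO and lowest YES1i libraries were at 10.1 and 10.3 CPM. In SUM159 it went from 40.3 ± 8.79 to 49.0 ± 3.14 CPM (log2 0.29, SE 0.11). DDIT4, also known as REDD1, read 109, 127, 118 and 130.2 CPM with DMSO and 155, 156, 180.0 and 164 CPM with YES1i in MDA-MB-231 (log2 0.44, SE 0.16). In SUM159 it stood at 450 ± 105 CPM with DMSO and 441 ± 80.4 CPM with YES1i, with wide overlap.

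In MDA-MB-231 the YES1i libraries of 9 of the 10 genes were all above the DMSO libraries, ASNS being the exception, where 25.5% of all tested genes showed this. In SUM159 this held for 5 (ATF4, DDIT3, TRIB3, NUPR1 and GDF15), against 20.5% of tested genes, and ATF3 was below without overlap, against 22.7%. Nothing is read from these shares, since the set was chosen on this contrast. The median log2 fold change of the 10 was 0.73 in MDA-MB-231 and 0.59 in SUM159, and 0.03 and 0.02 over all tested genes.

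**Figure D2:**
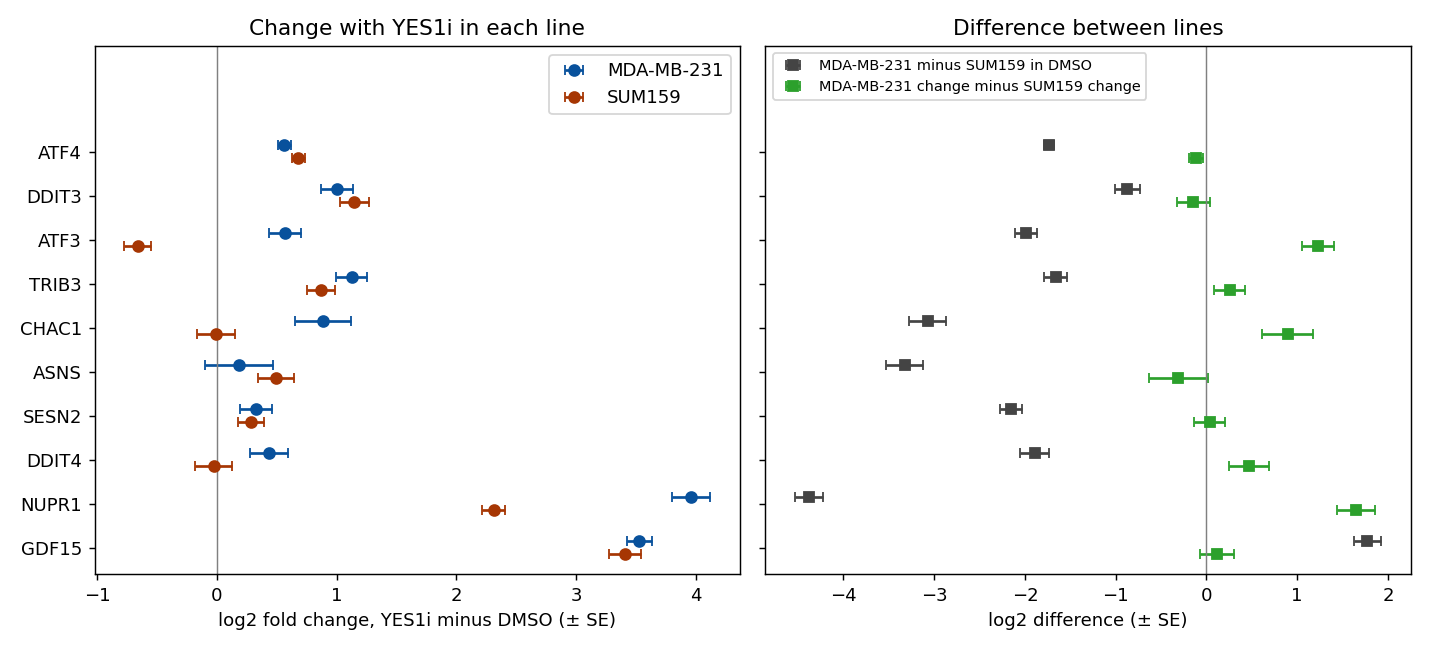
Left, log2 fold change of each gene with YES1i in each line, and right, the log2 difference between the lines in DMSO and between their changes, each with its SE from a fit of all 16 libraries. NUPR1 and GDF15 stand apart on the left at 2.31 to 3.96, and on the right NUPR1, ATF3 and CHAC1 have the differences in change that were called.

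In the DMSO group of SUM159, replicate 2 was also the highest for 30 of the 57 other ISR genes described below. DDIT4 stood at 607 CPM in it and at 388 to 404 CPM in the others. Without it, ASNS and SESN2 too had no overlap between YES1i and DMSO, which makes 7 genes in place of 5. The log2 fold change of CHAC1 then became 0.22 and that of DDIT4 0.15, where both had been slightly below 0, and ATF3 stayed below DMSO at -0.52. Those of ATF4, DDIT3, TRIB3, ASNS, SESN2, NUPR1 and GDF15 in SUM159 were then 0.71, 1.29, 1.01, 0.69, 0.44, 2.36 and 3.53. Within the YES1i group of SUM159, replicate 1 was highest for 6 genes and replicate 2 lowest for 6, against 30.4% and 33.3% of all tested genes.

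**Figure D3:**
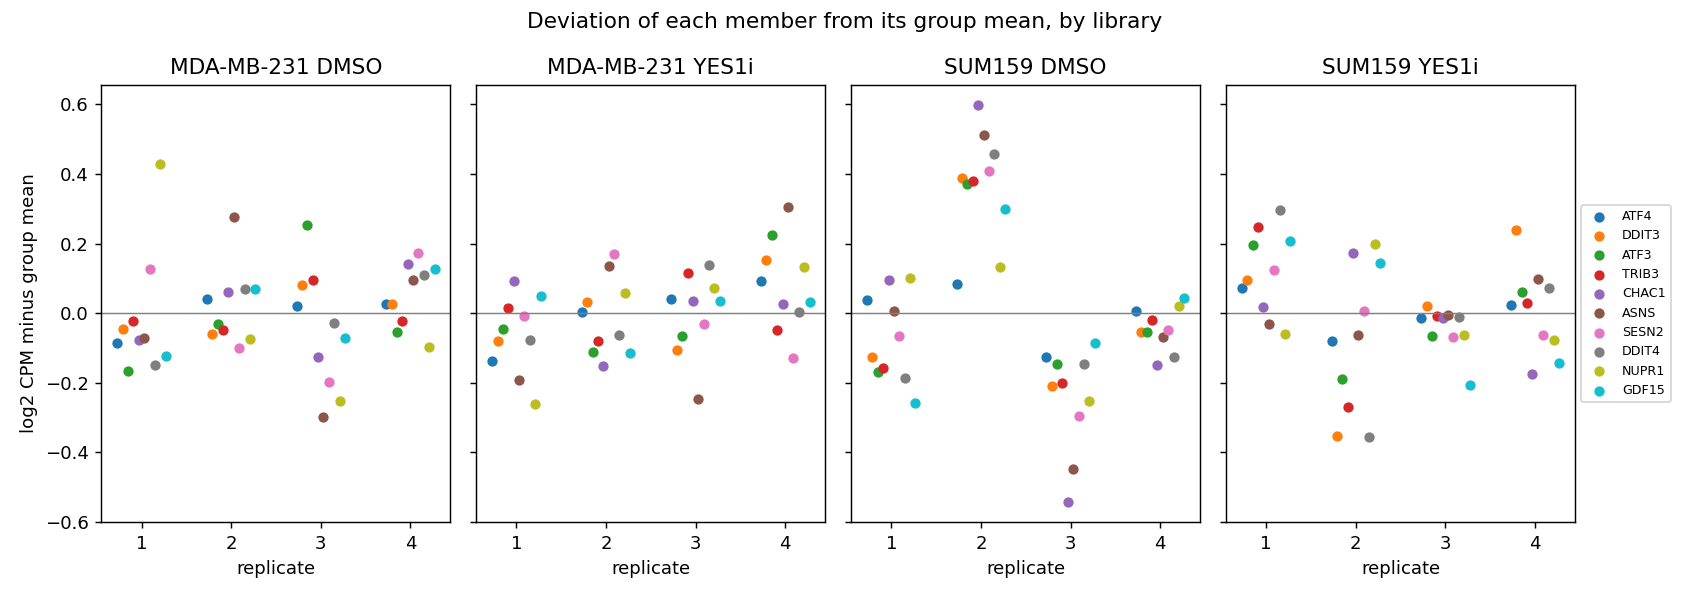
Deviation of each gene from its group mean (log2 CPM, with 0.5 CPM added) in each library, with the 10 genes as coloured points side by side within a replicate. In SUM159 DMSO replicate 2 all 10 points lie above 0, from ATF4 and NUPR1 at the bottom to CHAC1 at the top.

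In DMSO the lines differed strongly in this set. Of the 10 genes 9 were lower in MDA-MB-231 than in SUM159, where 38.7% of tested genes were called lower, and GDF15 was the only one higher, where 37.8% were and 76.6% were called in either direction (edgeR quasi-likelihood, Benjamini-Hochberg adjusted p under 0.05). NUPR1 was 20.8-fold lower (log2 -4.38, SE 0.15, edgeR adjusted p = 4.23e-19) and ASNS 10.0-fold lower (edgeR adjusted p = 1.56e-14). CHAC1 was 8.41-fold lower (adjusted p = 9.77e-12), SESN2 4.46-fold (adjusted p = 1.87e-13) and ATF3 3.96-fold (adjusted p = 3.04e-14). DDIT4, ATF4 and TRIB3 were 3.71-, 3.33- and 3.16-fold lower, and DDIT3 had the smallest difference, 1.83-fold (edgeR adjusted p = 1.58e-06). MARS, which overlaps DDIT3 on the opposite strand, was itself 2.32-fold lower in MDA-MB-231 (edgeR adjusted p = 3.6e-19). The DDIT3 difference is therefore uncertain, and the part of MARS reads in it was not tested. GDF15 was 3.42-fold higher in MDA-MB-231 (log2 1.77, SE 0.15, edgeR adjusted p = 1.09e-11). The DMSO libraries of the lines did not overlap for any of the 10 genes, as for 72.4% of all tested genes. All 10 were called under each of the 24 alternatives, and without SUM159 DMSO replicate 2 the values ran from -4.33 for NUPR1 to 1.90 for GDF15. Of the 57 other ISR genes described below 36 were lower and 8 higher in MDA-MB-231.

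The changes with YES1i differed between the lines for 3 of the 10 genes, all of them higher in MDA-MB-231 relative to SUM159. Over all tested genes 31.1% were called in either direction and 19.1% in that one, so 3 of 10 is close to the background. NUPR1 changed more in MDA-MB-231 by 1.65 on the log2 scale (SE 0.20, edgeR adjusted p = 5.45e-07), ATF3 by 1.23 (SE 0.18, edgeR adjusted p = 3.46e-06) and CHAC1 by 0.90 (SE 0.28, edgeR adjusted p = 0.0201). The CHAC1 call ended with limma-voom (0.83, adjusted p = 0.0858) and at an adjusted p under 0.01, and its adjusted p ran from 1.08e-04 to 0.0858 over the alternatives. Without SUM159 DMSO replicate 2 the differences were 1.60 for NUPR1, 1.09 for ATF3 and 0.66 for CHAC1, each still called (edgeR adjusted p = 1.8e-06, 3.35e-06 and 0.0152). GDF15 had a difference of 0.12 (SE 0.19, edgeR adjusted p = 0.688), ATF4 of -0.11 (SE 0.08, edgeR adjusted p = 0.282) and DDIT3 of -0.15 (SE 0.18, edgeR adjusted p = 0.601). These were not called, which does not show that the lines changed alike. ATF4 was called with upper quartile scaling (-0.23, adjusted p = 0.0178). That scaling moved the median of all genes in SUM159 from 0.02 to 0.14, and the ATF4 change there from 0.68 to 0.80. TRIB3, SESN2, ASNS and DDIT4 had differences of 0.26, 0.04, -0.31 and 0.47, none called. This comparison and that of the lines in DMSO share the DMSO libraries.

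Per kilobase of the gene length in the deposited table, DDIT4 and ATF4 were the most abundant transcripts of the set in every group. In MDA-MB-231 with DMSO they stood at 58.8 ± 4.66 and 53.6 ± 2.10 CPM per kb, with libraries that overlapped, followed by TRIB3 at 5.96 and DDIT3 at 4.45 CPM per kb. GDF15 at 2.61 ± 0.232 and SESN2 at 2.60 ± 0.337 CPM per kb could not be ordered, and ATF3, CHAC1, ASNS and NUPR1 lay below 2. With YES1i, GDF15 reached 30.1 ± 1.57 CPM per kb there, behind only DDIT4 and ATF4. In SUM159 with DMSO GDF15 was last at 0.795 ± 0.171 CPM per kb and ASNS next at 2.29 ± 0.677. With YES1i GDF15 stood at 8.11 ± 1.19 CPM per kb, beside CHAC1 at 9.09 ± 0.918, and NUPR1 at 19.9 ± 1.93 was within the spread of DDIT3 at 18.1 ± 3.06. The deposited length of NUPR1 is 5674 bases, and how lengths were derived is not given in the sources used here, so these orders depend on it.

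The wider pathway was followed in 58 further ISR genes, of which 57 were tested and FGF21 was at 11 counts in all. This list, its parts and the chaperone list below were chosen with earlier results of these data known. Their counts are thus not independent of the YES1i contrast. In MDA-MB-231 with YES1i 16 of the 57 rose and 21 fell (edgeR, against 26.8% and 22.1% of tested genes, 48.9% in either direction), with a median log2 fold change of -0.01. In SUM159 39 rose and 11 fell (against 25.1% and 26.5%, 51.6% in either direction), with a median of 0.38. The change differed between lines for 36 of the 57, 26 of them lower in MDA-MB-231, where 12.1% of tested genes were called lower and 19.1% higher. With upper quartile scaling the number that fell in SUM159 was 6.

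Of the 15 genes that start or end the response (eIF2 and its kinases, their activators, the eIF2B exchange factor and phosphatase subunits), 4 rose and 6 fell in MDA-MB-231, and 5 rose and 8 fell in SUM159. Of all tested genes 26.8% rose and 22.1% fell in MDA-MB-231, and 25.1% rose and 26.5% fell in SUM159. PPP1R15A (GADD34), the inducible subunit that strips phosphate from eIF2, rose from 70.8 ± 2.09 to 142 ± 8.95 CPM in MDA-MB-231 and from 69.9 ± 12.5 to 107 ± 7.82 CPM in SUM159. EIF2AK3, which encodes PERK, the kinase of the endoplasmic reticulum, rose by 0.72 (SE 0.08) and 0.57 (SE 0.07) on the log2 scale. EIF2B1, of the 15, overlaps GTF2H3 on the opposite strand, with 117% of its counts, so its values are uncertain. Of the 3 partner factors 1 rose in MDA-MB-231 and all 3 in SUM159. ATF5, 1 of the 3, overlaps NUP62 on the opposite strand, with 381% of its counts, so its values are uncertain too. CEBPB rose in both lines, by 0.94 and 0.72. CEBPG, a partner of ATF4, rose by 0.74 (SE 0.06) in SUM159 and had -0.14 (edgeR adjusted p = 0.0782) in MDA-MB-231. Fitted without the SUM159 libraries, that value was called (-0.18, edgeR adjusted p = 0.0146), as it was without MDA-MB-231 YES1i replicate 4 (-0.18, edgeR adjusted p = 0.0325). The difference between lines was -0.88 (edgeR adjusted p = 5.34e-09).

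Many genes of amino acid synthesis and uptake went in opposite directions in the lines. Of 18, 3 rose and 11 fell in MDA-MB-231 (against 26.8% and 22.1% of tested genes). In SUM159 13 of the 18 rose and 2 fell (against 25.1% and 26.5%). In 9 of the 18 the fall in MDA-MB-231 and the rise in SUM159 were both called, a pattern that 1.80% of tested genes had. SLC7A5, the large neutral amino acid transporter, fell from 642 ± 28.1 to 423 ± 18.2 CPM in MDA-MB-231 and rose from 618 ± 83.2 to 1319 ± 91.2 CPM in SUM159. SLC1A4, which carries serine and alanine, fell by 0.64 (SE 0.11) and rose by 1.24 (SE 0.10) on the log2 scale, with a difference of -1.88 (edgeR adjusted p = 3.92e-11). Named after their values were seen, the serine pathway genes PSAT1 and PHGDH also fell in MDA-MB-231 and rose in SUM159, with differences of -1.61 and -1.63. PHGDH was low in MDA-MB-231, at 53 to 87 counts per library with DMSO and 32 to 53 with YES1i. Its groups overlapped there, and its fall had an edgeR adjusted p of 0.0395. PSPH, of the same pathway, fell by 0.22 in MDA-MB-231 and was not called in SUM159. SLC38A2, also named afterwards, rose by 0.47 in MDA-MB-231 and fell by 0.68 in SUM159, the 1 gene of the 18 with that pattern, which 3.37% of tested genes had. The medians of the 18 were -0.32 and 0.48. ALDH1L2, called higher in SUM159, overlaps C12orf45 on the opposite strand, with 1440% of its counts, so its values are uncertain.

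Of 10 genes of tRNA charging and export 2 rose and 3 fell in MDA-MB-231, where 26.8% and 22.1% of tested genes did. In SUM159 9 rose, where 25.1% of tested genes did. SARS, the seryl-tRNA synthetase, rose from 146 ± 10.4 to 274 ± 14.5 CPM in SUM159 and stood at 162 ± 4.63 and 159 ± 11.3 CPM in MDA-MB-231 (edgeR adjusted p = 0.713). WARS had 0.52 (SE 0.05) in SUM159 and 0.05 (edgeR adjusted p = 0.486) in MDA-MB-231. The difference between lines was called for 8 of the 10, all lower in MDA-MB-231, against 12.1% of tested genes in that direction. Of 11 other targets of ATF4 and CHOP 6 rose and 1 fell in MDA-MB-231 (against 26.8% and 22.1% of tested genes). In SUM159 9 of them rose and 1 fell (against 25.1% and 26.5%). ADM2, a peptide hormone, rose by 1.81 (SE 0.20) and 2.45 (SE 0.15), and KLHL24, a ubiquitin ligase adaptor, by 1.96 (SE 0.07) and 1.33 (SE 0.07) on the log2 scale.

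Genes of the endoplasmic reticulum that ATF6 and XBP1 switch on, in the other arms of the unfolded protein response, were split. In both lines 8 of 15 fell and 5 rose, where 14.0% and 12.4% of tested genes did. By line 6 rose and 8 fell in MDA-MB-231 (against 26.8% and 22.1% of tested genes), with a median of -0.14. In SUM159 5 rose and 9 fell (against 25.1% and 26.5%), with a median of -0.58. PDIA4, a disulphide isomerase, fell from 357 ± 4.99 to 278 ± 16.5 CPM in MDA-MB-231 and from 376 ± 8.17 to 164 ± 11.5 CPM in SUM159. SDF2L1 fell by 0.65 (SE 0.12) and 1.19 (SE 0.12) on the log2 scale. HSPA5, which encodes the main chaperone BiP and was named after its values were seen, fell by 0.45 (SE 0.06) and 0.93 (SE 0.06). The 5 genes called higher in both lines, also named afterwards, were DNAJB9 and the degradation genes SEL1L, SYVN1, HERPUD1 and EDEM1. SEL1L, the scaffold of a ubiquitin ligase that clears misfolded proteins, rose by 0.43 (SE 0.05) and 0.59 (SE 0.05). DNAJB9 and SYVN1 overlap genes with as many or more counts, PNPLA8 and THAP5 on the strand opposite DNAJB9, and FAU on the strand of SYVN1 with MRPL49 opposite, so their values are uncertain. The change differed between lines for 9 of the 15, all higher in MDA-MB-231, against 19.1% of tested genes.

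**Figure D4:**
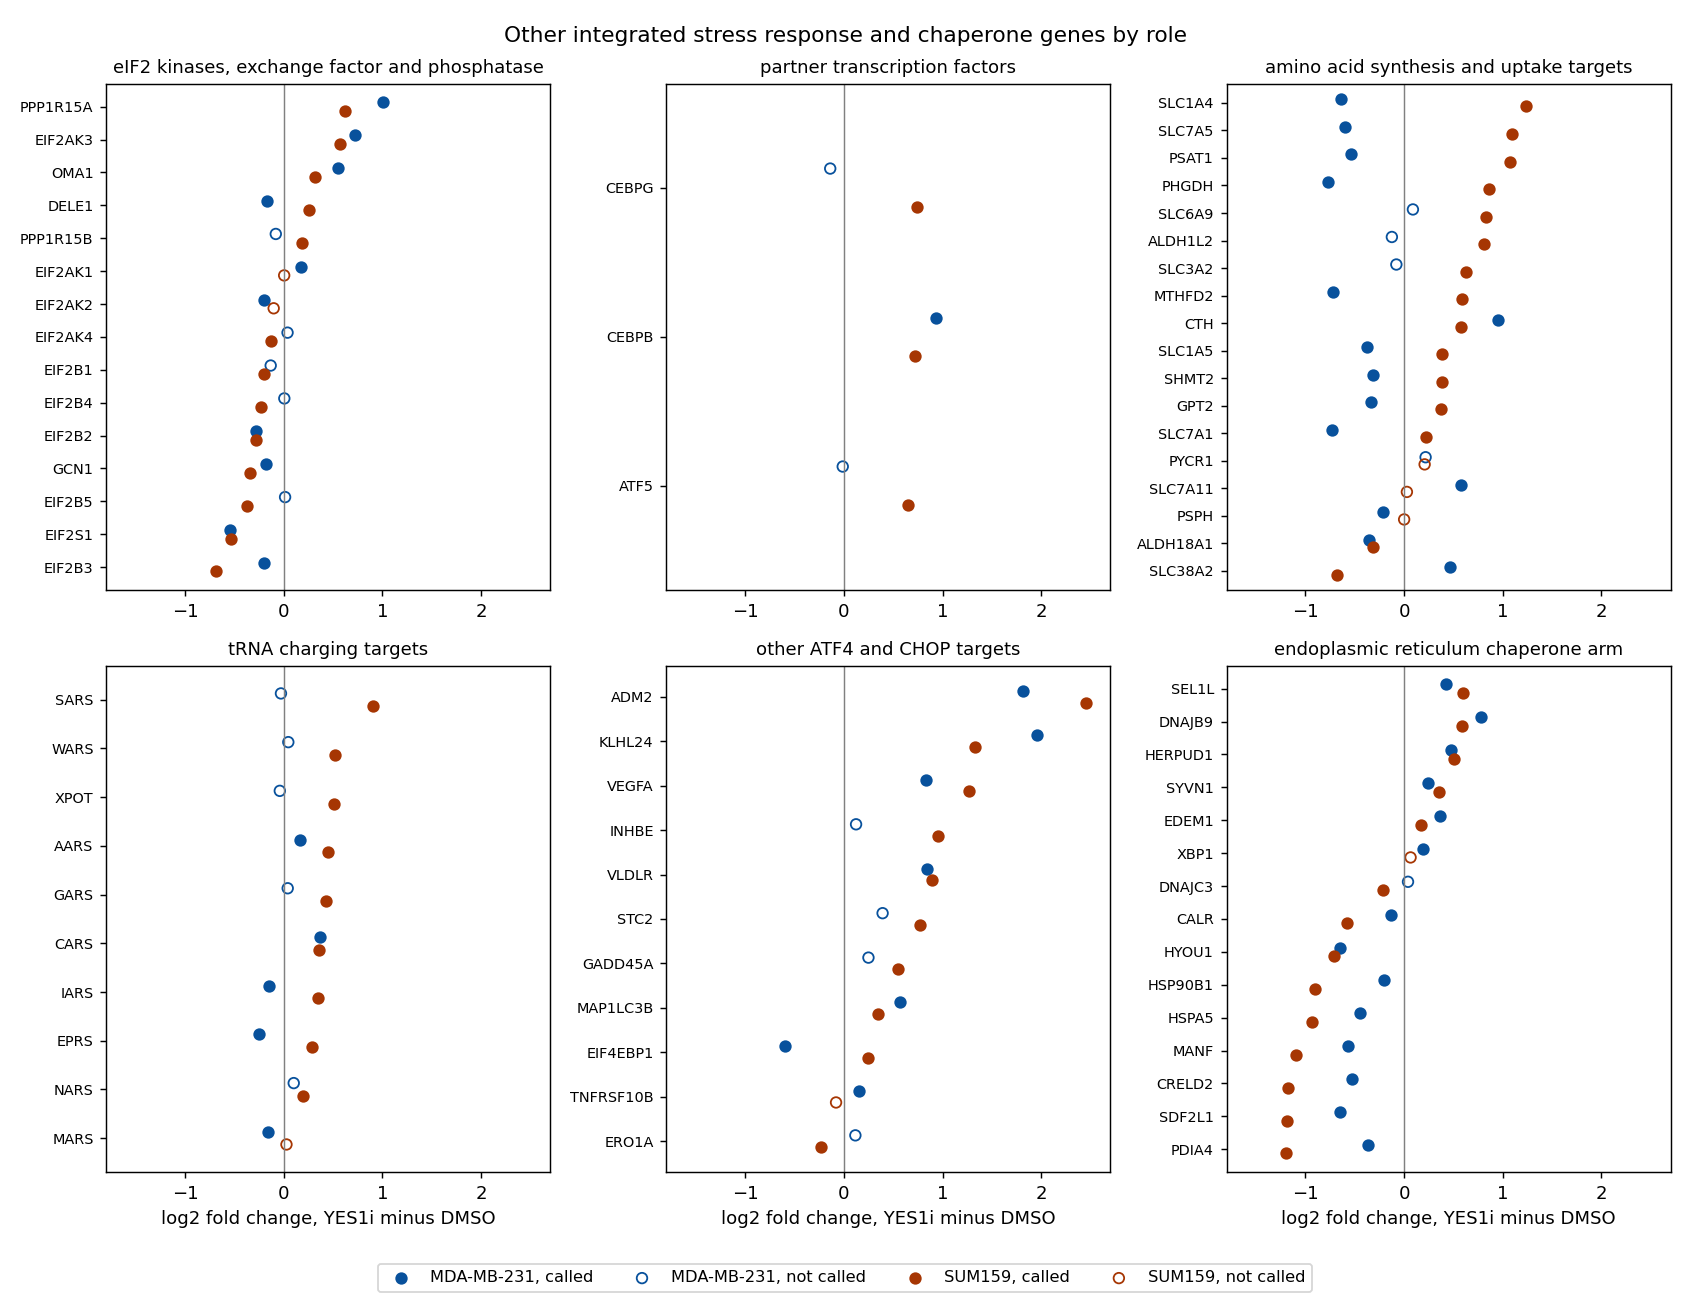
Log2 fold change with YES1i of the tested genes of each role list in MDA-MB-231 (blue) and SUM159 (orange), filled where edgeR's adjusted p was under 0.05. Genes of amino acid supply and tRNA charging lie apart between the lines, with 13 of 18 and 9 of 10 called higher in SUM159 (25.1% of all tested genes). Of the 15 chaperone arm genes 8 were called lower in both lines (14.0% of all tested genes).

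Relatives of the 10 genes did not all move with them. CHAC2, the constitutive relative of CHAC1, fell from 9.84 ± 0.837 to 3.76 ± 0.541 CPM in MDA-MB-231 and from 8.57 ± 0.782 to 3.00 ± 0.709 CPM in SUM159. CHAC2 overlaps ASB3 on the opposite strand, with 17.4% of its counts. TRIB1 rose by 1.41 (SE 0.09) and 0.94 (SE 0.08), TRIB2 by 0.40 and 0.47 and SESN3 by 0.87 and 0.48 on the log2 scale. SESN1 had 0.18 (edgeR adjusted p = 0.206) and 0.21 (edgeR adjusted p = 0.0539). JDP2, the closest relative of ATF3, rose in both lines, by 0.23 (edgeR adjusted p = 0.0358) and 0.45. DDIT4L had log2 fold changes of -0.58 and 0.80, neither called, and NUPR2 had 0 counts in all 16 libraries.

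GDF15 is made as a precursor that furin-like proteases cut, and the mature hormone acts through the receptor GFRAL with RET, which is known mainly from the brainstem. FURIN stood at 132 ± 1.92 CPM with DMSO and 129.7 ± 6.46 CPM with YES1i in MDA-MB-231 (edgeR adjusted p = 0.757) and fell from 114 ± 9.93 to 82.6 ± 6.38 CPM in SUM159. PCSK6 fell from 26.0 ± 1.73 to 19.4 ± 2.31 CPM in SUM159 and was under 1 CPM in MDA-MB-231, and PCSK5 had at most 10 counts in a library. GFRAL had 0 counts in all 16 libraries, so that levels of up to 3 counts, or 0.0859 to 0.194 CPM by library, are possible, and RET had 9 counts in all. These limits cover counting error only.

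By Pearson's r of log2 CPM over the 16 libraries, with the mean of each line subtracted, NUPR1 was the gene of the set most like GDF15 (r = 0.979), followed by ATF4 (0.965), TRIB3 (0.963) and DDIT3 (0.943). ATF3 was least like it (-0.002), and ASNS (0.524) and DDIT4 (0.489) lay between. Of 10867 other protein-coding genes at 5 CPM or more, GRINA (0.994), MFGE8, VIPR1, ECH1 and MUC1 were most like GDF15. ARMCX3 (0.996), GNG7, MXI1, SERINC3 and ALDH3A2 were most like NUPR1. All points of such an r share the treatment, so any gene with a steady change in both lines scores high. GDF15 and NUPR1 were both picked for a rise with YES1i, so nothing is read from the r between them. VIPR1, a receptor for the neuropeptide VIP, stood at 24.2 CPM with DMSO and 76.4 CPM with YES1i in MDA-MB-231, and at 24.04 and 77.6 CPM in SUM159.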

How the data were processed

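The authors deposited raw read counts per gene for the 16 libraries, per the file headers and values, and hg38, HISAT2 2.0.5 and featureCounts 1.5.0-p3 are listed, with no role or order, per the submitters' processing notes. The gene length, listed as another column of the deposited table, is in bases. The annotation and strand setting: not given in the sources used here. Genes were tested with edgeR 4.0.16 (R 4.3.3, limma 3.58.1, DESeq2 1.42.0): filterByExpr by group, TMM, the robust quasi-likelihood test in 1 fit of all libraries and Benjamini-Hochberg adjustment over 17647 genes, called at an adjusted p under 0.05. SEs come from the F statistic. Steps were tested on simulated data. No pair of libraries agreed within counting noise. The members and lists were chosen with earlier results of these data known. Named genes were the 10, the 2 most changed called genes of each list at 5 CPM or more in a line, and any relative or GDF15 partner. Alternatives were RLE and upper quartile scaling, DESeq2, limma-voom, 2 other filters, a replicate block, single-line fits, an adjusted p under 0.01 and leaving out each library.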

Additional observations from a re-analysis of the deposited data

Results flagged for a closer look

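The changes of 3 genes differed between the lines (MDA-MB-231 minus SUM159, log2, edgeR interaction test): NUPR1 by 1.65, ATF3 by 1.23 and CHAC1 by 0.90. Over all tested genes 19.1% were called in that direction and 31.1% in either. The CHAC1 call ended with limma-voom (adjusted p = 0.0858) and at an adjusted p under 0.01. For ATF3 all 4 YES1i libraries stood above the DMSO libraries in MDA-MB-231 and below them in SUM159.

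Of 102 gene and group combinations of 4 libraries with at least 20 counts in the highest, 6 held a library far from the other 3, where chance gives about 1 in 20. ATF4 in MDA-MB-231 DMSO replicate 1 stood at 127 CPM, against 137 to 139 in the others. DDIT4 in SUM159 DMSO replicate 2 stood at 607 CPM, against 388 to 404. NUPR1 in SUM159 YES1i replicate 2 stood at 129 CPM, against 107 to 108, and GDF15 in MDA-MB-231 YES1i replicate 2 at 57.9 CPM, against 64.1 to 64.8. CEBPG in SUM159 YES1i replicate 4 stood at 112 CPM, where the others were at 110 CPM after rounding, and SLC1A4 in SUM159 YES1i replicate 1 at 52.0 CPM, against 42.2 to 43.8.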

How the results depend on the processing

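Over 24 alternatives, 9 genes were called lower and 1 higher in MDA-MB-231 in DMSO, and 2 to 3 genes had a greater change in MDA-MB-231. With upper quartile scaling 1 gene, ATF4, had a lesser change there, and 6 of the 57 other ISR genes fell in SUM159. For the differences in change of those 57 genes, added after seeing the data, 6 were higher with upper quartile scaling, with the replicate block or at an adjusted p under 0.01, where 10 were reported. Of the chaperone genes, 1 had a lesser change in MDA-MB-231 with RLE scaling or DESeq2 and 2 with upper quartile scaling, where 0 were reported, and 0 to 1 with 1 library left out (1 without SUM159 DMSO replicate 1). The causes were not tested. Same-numbered DMSO and YES1i libraries of a line had correlations of -0.195 to 0.007 in their deviations from the group means. Such values cannot show whether these libraries were prepared together. The replicate block changed no call of the 10 genes. In MDA-MB-231, counts of 15 to 33 per library limit ASNS and, with DMSO, NUPR1.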
